A study of Homo sapiens with 23 samples.

Results

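Messenger RNA levels of 8 endodermal lineage factors and hepatic-type genes were followed in A549 cells depleted of THUMPD3. The members were 3 transcription factors (*HNF4A*, *FOXA1* and *FOXA2*), the esterase gene *AADAC*, the RNA-binding protein gene *A1CF* and the fibrinogen chain genes *FGA*, *FGB* and *FGG*, out of 61806 genes in the main count table. They were chosen by name, with their fold changes in the knockdowns already known, so those fold changes are given as a description and without a test. A549 is an established line of human lung adenocarcinoma cells, and THUMPD3 is a tRNA guanosine methyltransferase. The 17 main libraries of rRNA-depleted total RNA held 3 each of sh1Control, shD3 #1, sh4Control, shD3 #4 and siD3 #3 and 2 of siControl, and 6 further libraries, sequenced more deeply, held 3 each of sh1Control and shD3 #1. The shD3 #1 and shD3 #4 cells carried different doxycycline-inducible shRNAs against *THUMPD3*, as puromycin-selected pools that were not described as clones. The siD3 #3 cells (siTHUMPD3 in the sample labels) were transfected transiently with an siRNA and were harvested a day earlier than the shRNA cells. The control samples are labelled WT, the paper calls the controls untreated, and the sources used here do not state whether sh1Control and sh4Control received doxycycline.

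HNF4A is a nuclear receptor that maintains the hepatocyte and enterocyte programmes, and FOXA1 and FOXA2 are pioneer factors that open chromatin at genes of liver, gut and lung during endoderm development. Fibrinogen, the precursor of the fibrin clot, is assembled from the chains encoded by *FGA*, *FGB* and *FGG*, a gene cluster transcribed mainly in the liver, where interleukin-6 acting through STAT3, together with glucocorticoids, raises its expression. AADAC is a hydrolase of the endoplasmic reticulum in liver and intestine, and A1CF is the RNA-binding partner of the APOBEC1 deaminase in editing of apolipoprotein B mRNA.

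The 3 fibrinogen genes are neighbours on chromosome 4 of GRCh38 (GENCODE annotation). *FGB* (ENSG00000171564, chr4:154563011-154572807) lies on the forward strand, and *FGA* (ENSG00000171560, chr4:154583126-154590742) and *FGG* (ENSG00000171557, chr4:154604134-154612967) lie on the reverse strand. The gaps are 10318 bases between *FGB* and *FGA* and 13391 bases between *FGA* and *FGG*. The 250 bases before the start of each (RefSeq, GRCh38.p14) are shown because the 3 genes had shared a direction in both shRNA comparisons. They are the windows chr4:154562761-154563010 (forward strand), chr4:154590743-154590992 (reverse strand) and chr4:154612657-154612906 (reverse strand), and capitals mark the letters ATTAAC, the complement of GTTAAT, a half-site of HNF1, and CTGGGA or its complement TCCCAG, the core of an interleukin-6 type STAT3 element.
FGB: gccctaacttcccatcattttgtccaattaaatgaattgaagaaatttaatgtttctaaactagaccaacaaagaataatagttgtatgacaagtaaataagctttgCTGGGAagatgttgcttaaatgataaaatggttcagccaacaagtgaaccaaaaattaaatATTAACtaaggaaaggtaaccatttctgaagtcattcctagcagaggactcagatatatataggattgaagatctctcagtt
FGA: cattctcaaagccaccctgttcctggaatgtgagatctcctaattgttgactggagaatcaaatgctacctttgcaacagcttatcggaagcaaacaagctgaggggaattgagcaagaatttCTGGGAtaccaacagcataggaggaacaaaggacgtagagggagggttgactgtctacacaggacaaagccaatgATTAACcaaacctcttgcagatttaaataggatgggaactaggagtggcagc
FGG: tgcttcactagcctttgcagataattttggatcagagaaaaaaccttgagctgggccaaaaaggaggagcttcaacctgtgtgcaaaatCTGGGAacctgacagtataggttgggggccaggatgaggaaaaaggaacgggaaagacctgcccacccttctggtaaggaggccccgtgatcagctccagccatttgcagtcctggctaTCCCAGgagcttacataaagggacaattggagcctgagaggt

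The HNF1 letters stood 82 to 77 bases before the *FGB* start and 52 to 47 bases before the *FGA* start, and were not in the *FGG* window. RefSeq lists another *FGB* start at chr4:154562980, and the same letters stood 51 to 46 bases before it. The STAT3 letters were in all 3 windows. Searched on both strands in the windows of 35116 RefSeq promoters, GTTAAT was found in 6.23% and CTGGGA in 28.7%, so the second is common. TGTTTAC, a FOXA motif (2.98% of promoters), and CAAAGTC, an HNF4 half-site (2.91%), were not found in the windows of the 7 members in the promoter table, which does not list *FOXA2*. The motifs share no overlapping matches in the fibrinogen windows. These matches are a description of letters and not of binding.

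The other members lie apart: *HNF4A* (ENSG00000101076) at chr20:44355699-44432845, *FOXA1* (ENSG00000129514) at chr14:37589552-37596059, *FOXA2* (ENSG00000125798) at chr20:22580998-22585455, *AADAC* (ENSG00000114771) at chr3:151814073-151828488 and *A1CF* (ENSG00000148584) at chr10:50799409-50885675. *AADAC* lies wholly within *AADACL2-AS1* on the opposite strand, which had 0 to 6 counts in any main library. *A1CF* shares 17087 bases with *ASAH2B* on the opposite strand, which had 70 to 137 counts and more reads than *A1CF* itself in every group's range. The library kit kept strand, but which strand column was counted is not given in the sources used here.

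Total counts ran from 9854294 to 22101059 in the main libraries and from 27285889 to 59974740 in the deep ones. *THUMPD3* was lower than in the controls in each knockdown, with 50.6% of the control level left in shD3 #1, 31% in shD3 #4, 17.1% in siD3 #3 and 49.6% in deep shD3 #1 (edgeR quasi-likelihood test, adjusted p = 6.42e-09, 2.42e-15, 6.88e-06 and 1.55e-09). The exact permutation test of its cpm (counts scaled to library size with TMM factors over a table) gave p = 0.1 in each comparison, the smallest these group sizes allow (two-sided). Markers of epithelial cells were high throughout (6 genes, summed 3840 to 7670 cpm in the main libraries). Their sum ran from 5860 to 6190 cpm in sh1Control and 7430 to 7670 in shD3 #1. It ran from 6760 to 7000 in sh4Control and 4820 to 5260 in shD3 #4, and from 4760 to 5330 in deep sh1Control and 6960 to 7040 in deep shD3 #1. None of these pairs overlapped, and the siRNA groups did. The markers did not move together. *CDH1* was lower in shD3 #1 and deep shD3 #1 (log2 fold change -1.39 in each), where *EPCAM* (1.00 and 1.89) and *KRT19* (1.95 and 1.71) were higher. In shD3 #4 *KRT7* was at -0.83 and *CDH1* and *KRT19* at 0.30 and 0.27. The 11 alveolar markers summed to 43 to 69.1 cpm in the main libraries. Of these, *NKX2-1*, the defining lung factor, had at most 5 counts and *SFTPA1* and *SFTPB* at most 1 in any library. *SFTPD* had log2 fold changes of -2.41 (SE 0.48) in shD3 #1, 2.36 (SE 0.28) in shD3 #4 and 2.48 (SE 0.76) in siD3 #3. *LAMP3* was at 1.23 (SE 0.43) in shD3 #1, where *NAPSA*, *ABCA3* and *AGER* were at 0.35, 0.14 and 0.21. Summed fibroblast markers (6 genes) ran from 6.36 to 7.58 cpm in sh1Control and 15.5 to 17.9 in shD3 #1, from 4.25 to 8.59 in sh4Control and 10.5 to 13.4 in shD3 #4, and from 3.02 to 4.33 in siControl and 6.79 to 8.2 in siD3 #3, with *DCN* at 0 or 1 counts. In the deep libraries they ran from 7.8 to 8.63 cpm in sh1Control and from 30.7 to 32.6 in shD3 #1. Unlike *DCN*, the fibroblast markers *COL3A1*, *COL1A1* and *LUM* were called higher in shD3 #1 (log2 fold changes 3.45, 0.74 and 0.69). Deep shD3 #1 had the same genes called higher, at 5.63, 1.72 and 3.67. For shD3 #4 the calls were *COL3A1* (1.77) with *LUM* (1.73), while *COL1A1* was not called (0.37). *LUM* was also called higher in siD3 #3 (2.46), where *COL1A1* was not (0.72). Summed endothelial markers (4 genes) stayed at or below 2.22 cpm in the main libraries, but ran from 0.142 to 0.336 in siControl and 1.78 to 2.22 in siD3 #3, and from 0.424 to 0.484 in sh4Control and 1.09 to 1.71 in shD3 #4. Immune markers (5 genes) stayed at or below 5.08 cpm there, with 3.67 to 4.66 in sh1Control and 2.38 to 3.12 in shD3 #1. The alveolar sum was 165 to 170 cpm in deep sh1Control and 192 to 203 in deep shD3 #1. The part of any of these in the results below was not tested. Among the siD3 #3 libraries, replicate 3 stood apart from the others. The root mean square log2 difference was 0.474 between the siControl libraries, which as a pair cannot show which of them departs, and 0.52 and 0.539 between siD3 #3 replicate 3 and the others, against 0.365 between siD3 #3 replicates 1 and 2. In shD3 #1 these differences reached 0.508, and replicate 3 was the shallowest library.

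The 8 members did not move as 1 group. *AADAC* was higher than in its own controls in every knockdown, *FOXA1* was higher in both shRNA knockdowns, and *HNF4A* and *FOXA2* differed by at most 1.43-fold in the main libraries. *A1CF*, *FGA*, *FGB* and *FGG* were lower in shD3 #1 and higher in shD3 #4, and in siD3 #3 their knockdown and control libraries overlapped. Past an adjusted p of 0.05 and a 1.5-fold change in either direction, 2 members were higher and 4 lower in shD3 #1, beside 14.5% and 14.6% of all genes tested. In shD3 #4, 5 members were higher, beside 8% of all genes higher and 4.49% lower, and in siD3 #3 1 member was higher, beside 12.5% and 9.42%. In deep shD3 #1, 3 members were higher, beside 15% and 14.1%. The members were selected on these contrasts, so the counts describe the choice. All 8 members passed the filter on low counts in each of these comparisons.

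**Figure D1:**
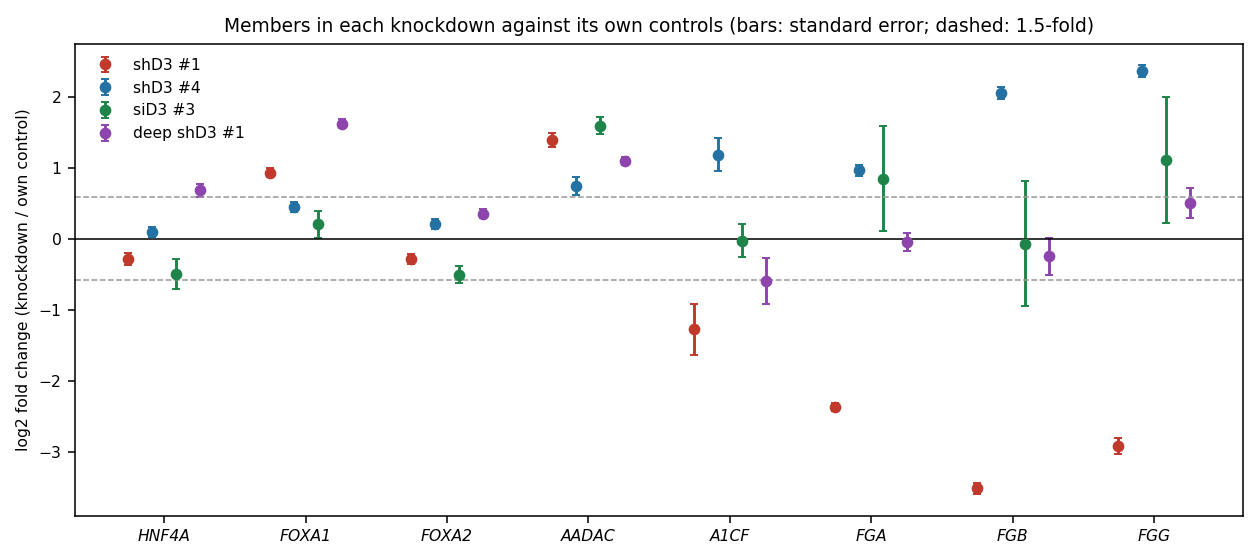
Log2 fold change (vertical axis) of each member (horizontal axis) in the 4 knockdown comparisons against their own controls, with standard errors as bars and the 1.5-fold threshold dashed. *AADAC* sits above the threshold in all 4, and the fibrinogen genes sit between -3.52 and -2.37 in shD3 #1 and between 0.96 and 2.36 in shD3 #4.

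*FOXA1* had 30.6, 33.3 and 33.1 cpm in sh1Control and 63.3, 60.5 and 57.9 in shD3 #1. All shD3 #1 libraries were above the controls, and the log2 fold change was 0.93 (SE 0.07). In shD3 #4 it had 42.9, 41.0 and 40.8 cpm against 30.5, 29.8 and 32.2 in sh4Control, again without overlap and at 0.45 (SE 0.07) below the fold threshold. The siRNA libraries overlapped, with 35.2, 41.2 and 26.7 cpm in siD3 #3 against 33.4 and 26.2 in siControl (0.20, SE 0.19). The deep libraries, normalised separately, had 25.7, 24.6 and 26.4 cpm in sh1Control and 79.8, 81.9 and 73.4 in shD3 #1, the widest separation of this pioneer factor in the data (1.62, SE 0.06).

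*HNF4A* had 26.5, 30.4 and 31.5 cpm in sh1Control and 23.4, 24.0 and 24.2 in shD3 #1, so the knockdown libraries were just below the controls (-0.29, SE 0.08). The shD3 #4 libraries, at 37.3, 34.0 and 32.3 cpm, overlapped the sh4Control ones at 33.6, 31.2 and 33.7 (0.09, SE 0.07). In siD3 #3, 21.5, 21.2 and 12.7 cpm lay below the siControl values of 25.4 and 26.8 (-0.50, SE 0.21). Replicate 3 was the lowest of these, and without it the log2 fold change was -0.30 (SE 0.10). The deep libraries went the other way, with 16.4, 18.2 and 22.0 cpm in sh1Control and 31.4, 29.6 and 29.6 in shD3 #1 (0.68, SE 0.09).

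*FOXA2* had the same sign as *HNF4A* in each knockdown comparison. It had 35.1, 30.8 and 34.1 cpm in sh1Control and 27.1, 27.0 and 26.9 in shD3 #1 (-0.29, SE 0.07), without overlap. In shD3 #4, 35.8, 35.9 and 33.7 cpm lay above 31.1, 29.9 and 32.1 in sh4Control (0.20, SE 0.07). In siD3 #3, 21.9, 22.4 and 18.7 cpm lay below 28.8 and 31.3 in siControl (-0.51, SE 0.12). No comparison took this factor past the fold threshold. The deep libraries again differed in sign from the main shD3 #1 libraries, with 48.7, 47.0 and 52.2 cpm in sh1Control and 65.7, 62.8 and 59.5 in shD3 #1 (0.35, SE 0.06). The sources used here do not say whether the deep libraries came from the same RNA as the main ones, and the difference between the sequencing sets was not tested. Within libraries, the ratio of *FOXA1* to *FOXA2* counts was 0.872 to 1.08 in sh1Control and 2.15 to 2.33 in shD3 #1, and 0.506 to 0.527 and 1.21 to 1.3 in the deep libraries, so the change of *FOXA1* relative to *FOXA2* had the same direction in both sets.

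*AADAC* had 10.1, 9.65 and 8.92 cpm in sh1Control and 22.8, 27.8 and 23.3 in shD3 #1 (log2 fold change 1.39, SE 0.10). It had 6.61, 5.66 and 7.37 cpm in sh4Control and 11.8, 9.99 and 10.6 in shD3 #4 (0.74, SE 0.12). In the siRNA libraries it had 10.4 and 8.67 cpm in siControl and 28.2, 28.9 and 29.2 in siD3 #3 (1.59, SE 0.12). In all 3 comparisons every knockdown library of this esterase gene lay above every one of its controls, 2.62-fold, 1.67-fold and 3.01-fold on average in the fit. Among all genes tested, 62.1%, 49.6% and 60% had groups that did not overlap in shD3 #1, shD3 #4 and siD3 #3. The deep libraries had 18.7, 18.2 and 17.2 cpm in sh1Control and 41.1, 35.5 and 39.0 in shD3 #1 (1.09, SE 0.06), and 67.1% of genes did not overlap there. Unlike the fibrinogen genes, *AADAC* was as high in siD3 #3 replicate 3, which stood apart over all genes, as in the other siD3 #3 libraries.

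**Figure D2:**
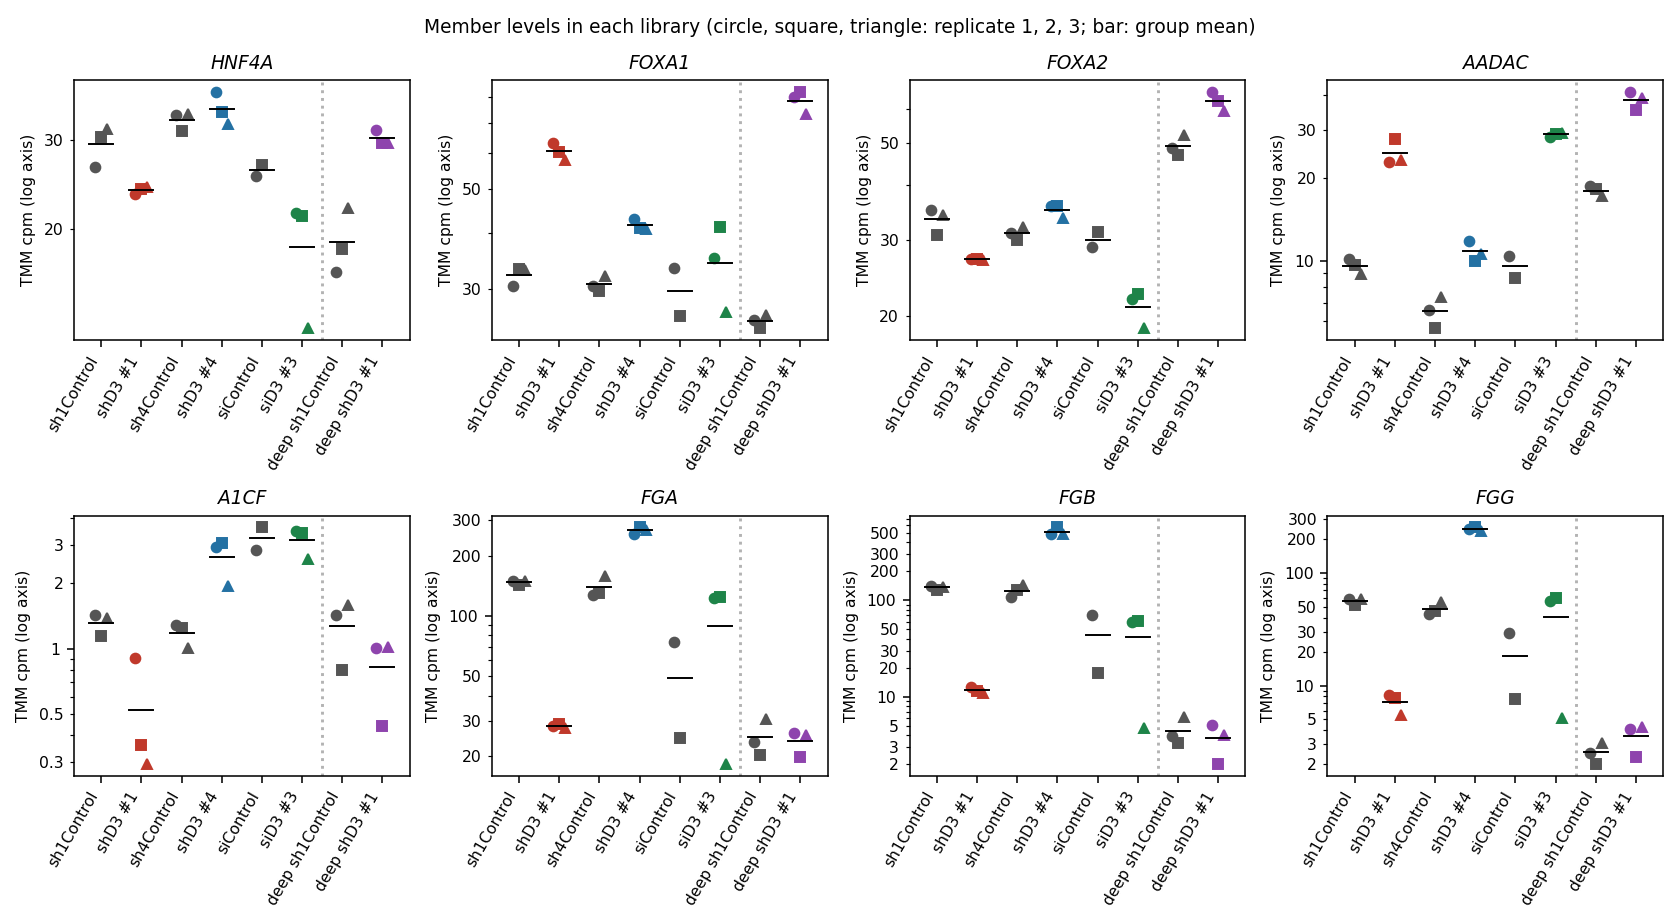
TMM-normalised cpm on log axes (vertical) for each member in each library, by group (horizontal), with replicates as circle, square and triangle, group means as bars and the separately normalised deep libraries right of the dotted line. *AADAC* lies above the controls in every knockdown, and *FGA*, *FGB* and *FGG* spread widely within siControl and siD3 #3.

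*A1CF* was the least expressed member, and its counts limit what can be read. It had 28, 20 and 28 counts in sh1Control and 14, 7 and 3 in shD3 #1, or 1.43, 1.14 and 1.39 against 0.909, 0.362 and 0.295 cpm. The log2 fold change was -1.28 (SE 0.36), and without shD3 #1 replicate 1, the highest knockdown library, it was -1.93 (SE 0.41). In shD3 #4 the direction was opposite, with 62, 54 and 34 counts against 24, 26 and 19 in sh4Control and 2.93, 3.08 and 1.94 against 1.29, 1.25 and 1.01 cpm (1.18, SE 0.23). The siRNA libraries overlapped at 2.85 and 3.62 cpm in siControl and 3.48, 3.40 and 2.60 in siD3 #3 (-0.03, SE 0.23). The deep libraries, with 84, 40 and 88 counts in sh1Control and 31, 12 and 37 in shD3 #1, overlapped in cpm, at 1.43, 0.794 and 1.59 against 1.01, 0.439 and 1.02 (-0.60, SE 0.32).

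The fibrinogen genes had the largest differences of the 8 members in shD3 #1. *FGA*, the alpha chain, had 150.0, 143.0 and 150.0 cpm in sh1Control and 28.2, 29.0 and 27.5 in shD3 #1, 5.16-fold lower (-2.37, SE 0.06). *FGB*, the beta chain, went from 141.0, 128.0 and 138.0 to 12.6, 11.5 and 10.8 cpm, 11.4-fold lower (-3.52, SE 0.08). *FGG*, the gamma chain, went from 59.0, 51.4 and 58.1 to 8.18, 7.75 and 5.51 cpm, 7.56-fold lower (-2.92, SE 0.11). The groups were far apart for each chain. In bulk RNA, fewer cells making fibrinogen and less fibrinogen mRNA per cell cannot be told apart.

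In shD3 #4 each chain was higher than in sh4Control. *FGA* had 127.0, 130.0 and 159.0 cpm in sh4Control and 257.0, 276.0 and 269.0 in shD3 #4 (0.96, SE 0.08). *FGB* had 107.0, 128.0 and 145.0 against 489.0, 569.0 and 490.0 (2.05, SE 0.09), and *FGG* had 43.0, 45.8 and 55.3 against 243.0, 253.0 and 235.0 (2.36, SE 0.08). No library overlapped between the groups, and the control levels were close to those of sh1Control. The shRNA comparisons share no library, and their difference was not tested for the members because it entered the choice of them.

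In the siRNA libraries the knockdown and control levels of fibrinogen overlapped. *FGA* had 73.7 and 24.5 cpm in siControl and 123.0, 124.0 and 18.3 in siD3 #3 (0.84, SE 0.74). *FGB* had 70.0 and 17.7 against 59.8, 61.3 and 4.78 (-0.07, SE 0.88), and *FGG* had 29.4 and 7.53 against 56.1, 60.2 and 5.19 (1.11, SE 0.89). In each chain siControl replicate 2 and siD3 #3 replicate 3 were the low libraries of their groups, and the latter also stood apart over all genes. Without siD3 #3 replicate 3 the log2 fold changes were 1.31 (SE 0.34), 0.43 (SE 0.42) and 1.61 (SE 0.39) for *FGA*, *FGB* and *FGG*. Without siControl replicate 2 they were 0.26 (SE 0.90), -0.75 (SE 1.02) and 0.45 (SE 1.07), and without siControl replicate 1 they were 1.85 (SE 1.02), 1.24 (SE 1.19) and 2.42 (SE 1.29), so the choice of a single library turned the sign for *FGB*.

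In the deep libraries fibrinogen was low in both groups. *FGA* had 23.6, 20.3 and 30.7 cpm in sh1Control and 26.2, 19.9 and 25.6 in shD3 #1 (-0.05, SE 0.13). *FGB* had 3.94, 3.27 and 6.08 against 5.09, 2.01 and 3.99 (-0.25, SE 0.26), and *FGG* had 2.53, 2.02 and 3.09 against 4.11, 2.34 and 4.29 (0.50, SE 0.21). The groups overlapped for each chain, unlike in the main shD3 #1 libraries. The ratio of *FGA* to *FOXA2* counts within a library was 4.27 to 4.65 in the main sh1Control libraries and 0.431 to 0.589 in the deep ones. The annotation behind the deep table lists genes by symbol and may differ from that of the main table, so culture, sequencing and annotation cannot be told apart in the comparison of the sets.

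The proportions of the chains differed as well. The number of *FGB* counts per *FGA* count was 0.895 to 0.938 in sh1Control and 0.843 to 0.982 in sh4Control, 0.394 to 0.447 in shD3 #1 and 1.83 to 2.06 in shD3 #4. In siD3 #3 it was 0.262 to 0.494, below both siControl libraries at 0.95 and 0.722, while the levels of the chains overlapped. The groups held 3 and 2 libraries, the order was not tested, and the share of gene pairs separating in that way was not counted. Within each siRNA group *FGB* per *FGA* was lowest in the library with least fibrinogen, siControl replicate 2 and siD3 #3 replicate 3. *FGG* counts per *FGA* count were 0.358 to 0.394 in sh1Control, 0.201 to 0.29 in shD3 #1, 0.339 to 0.353 in sh4Control and 0.876 to 0.944 in shD3 #4. The siRNA groups overlapped in that ratio, at 0.398 and 0.307 in siControl and 0.284 to 0.486 in siD3 #3. In the deep libraries *FGB* per *FGA* was 0.161 to 0.198 in sh1Control and 0.101 to 0.194 in shD3 #1. *FGG* per *FGA* was 0.0998 to 0.107 in deep sh1Control and 0.118 to 0.167 in deep shD3 #1, higher without overlap, where the main shD3 #1 libraries had been lower.

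**Figure D3:**
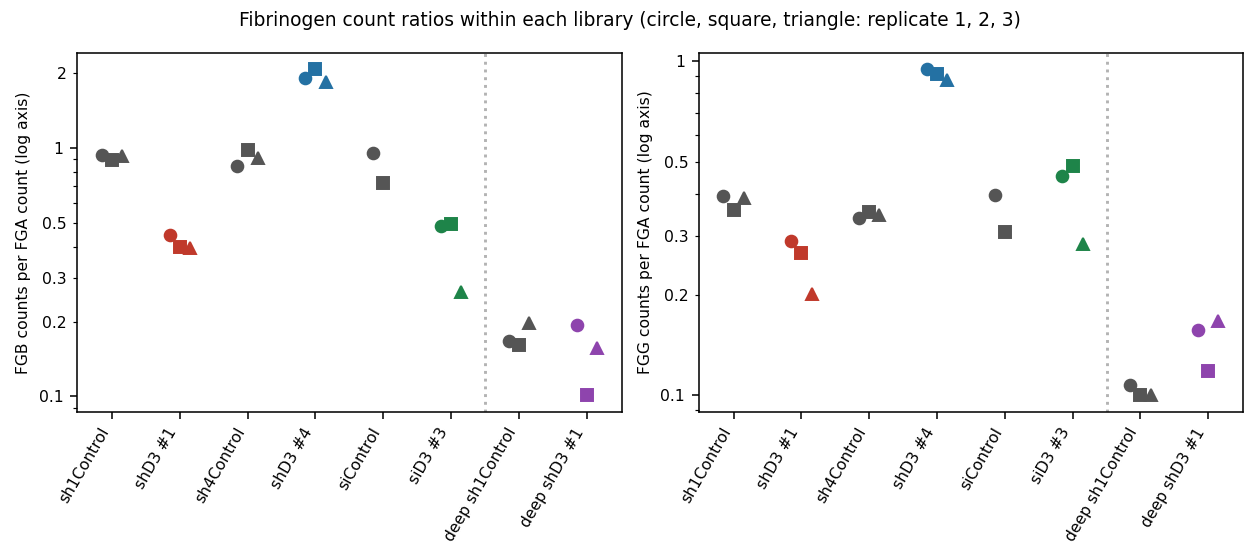
*FGB* and *FGG* counts per *FGA* count (vertical, log axis) in each library by group (horizontal), with replicates as circle, square and triangle and the deep libraries right of the dotted line. *FGB* per *FGA* lies at 0.394 to 0.447 in shD3 #1 and at 1.83 to 2.06 in shD3 #4, either side of their controls.

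The controls could be compared with tests, since the choice of the members used no contrast between them, although the same libraries serve as controls above. Between sh4Control and sh1Control, 0.329% of genes tested were called by edgeR, and 0 of the 8 members (2 at an unadjusted p under 0.05, and 0 called by DESeq2). *AADAC* was lower in sh4Control by a log2 fold change of -0.56 (SE 0.12, adjusted p = 0.00396), under the fold threshold, and all 3 libraries lay below those of sh1Control. The share of all genes whose groups did not overlap was not counted for this contrast. *FGG* differed by -0.24 (adjusted p = 0.0447), and the remaining members by -0.17 to 0.14 (adjusted p = 0.24 to 0.727).

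The siControl libraries differed from the shRNA controls in 7.81% of genes tested and in 4 of the members. *A1CF* was 2.55-fold higher in siControl (log2 fold change 1.35, SE 0.20, adjusted p = 0.000303), with both siControl libraries above all 6 shRNA controls. *FGA*, *FGB* and *FGG* were lower, by -1.53 (SE 0.25, adjusted p = 0.000506), -1.56 (SE 0.30, adjusted p = 0.00154) and -1.46 (SE 0.28, adjusted p = 0.00169), and did not overlap. Here too the share of all genes without overlap was not counted. The size rested on the pair of siControl libraries. Without siControl replicate 1 the fibrinogen values were -2.54, -2.89 and -2.79, and without siControl replicate 2 they were -0.96, -0.91 and -0.83. A lone siControl library shows no spread of its own group, so these fits give sizes only. *FOXA1*, *FOXA2* and *AADAC* differed by -0.08, -0.10 and 0.25 (adjusted p = 0.547, 0.382 and 0.342), and *HNF4A* by -0.26 (adjusted p = 0.048), under the fold threshold. Delivery and harvest day cannot be told apart in this contrast.

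Per kilobase of exon, the order of mean levels in sh1Control was *FGA* (37.7 cpm per kb), *FGB* (31), *FGG* (15.6), *FOXA2* (12.3), *FOXA1* (7.33), *AADAC* (5.87), *HNF4A* (2.9) and *A1CF* (0.137). The order depends on exon length summed over all annotated transcripts and is a description of level. In the deep sh1Control libraries *FOXA2* (18.1) and *AADAC* (11.1) stood above *FGA* (6.35).

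Other genes of the endodermal programme were examined in 4 lists of 162 genes that left out the members. For the list counts here and below, the shares of all genes tested that rose and fell were 14.5% and 14.6% in shD3 #1 and 8% and 4.49% in shD3 #4. They were 12.5% and 9.42% in siD3 #3 and 15% and 14.1% in deep shD3 #1. The filter on low counts was applied to each comparison alone. A gene nearly absent from the controls passed it only through the knockdown libraries and could only be called higher. A gene nearly absent from the knockdown libraries could likewise only be called lower. Such genes are part of the list counts and medians. In shD3 #4, 40 of the 81 genes tested rose and 2 fell, with a median log2 fold change of 0.74 beside 0.01 over all genes. In shD3 #1, 18 of 75 rose and 23 fell (median -0.01, as over all genes). In siD3 #3, 20 of 85 rose and 3 fell (median 0.44 beside 0.03), and in deep shD3 #1, 32 of 82 rose and 12 fell (median 0.19 beside -0.02). The siD3 #3 counts moved with single libraries. Without siD3 #3 replicate 3, 33 rose and 2 fell. Without siControl replicate 1, and likewise without siControl replicate 2, 13 rose, and the lone control was then assumed to vary like the other groups. Between sh4Control and sh1Control, 1 of 73 list genes was higher and 1 lower.

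Of the plasma proteins of hepatocytes, 23 of 28 rose and 1 fell in shD3 #4 (median 1.65) and 11 of 31 rose and 1 fell in siD3 #3 (median 1.49). In shD3 #1, 7 of 25 rose and 7 fell (median -0.05), and in deep shD3 #1, 10 of 28 rose and 5 fell (median 0). These counts include genes that passed the filter only through the group where they were high. By the counts below, that was so for *KNG1* in shD3 #4, *SAA1* in siD3 #3 and *TTR* in both shD3 #1 sets. *LBP* in deep shD3 #1 passed only through the controls. The direction of these calls was thus set by the filter. *KNG1*, kininogen, rose most in shD3 #4 (log2 fold change 4.21, SE 0.47, adjusted p = 8.35e-08), from 0 to 3 counts in sh4Control to 21 to 38, and *F12*, coagulation factor XII, fell there (-1.58, SE 0.15, adjusted p = 6.26e-09). *SAA1*, an acute-phase protein, rose most in siD3 #3 (adjusted p = 0.00344), from 0 counts in both siControl libraries to 14 to 23. *TTR*, transthyretin, rose most in both shD3 #1 sets, from 0 to 2 counts in sh1Control to 6 to 14 in the main libraries (adjusted p = 0.000141) and from 0 counts in each deep sh1Control library to 19 to 36 (adjusted p = 6.55e-07). *F7*, coagulation factor VII, fell most in shD3 #1 (-3.33, SE 0.37, adjusted p = 1.48e-06) and rose in shD3 #4 (1.51, SE 0.18, adjusted p = 2.96e-07), as the fibrinogen genes had differed. *LBP*, the lipopolysaccharide-binding protein, fell most in deep shD3 #1 (-4.08, SE 0.52, adjusted p = 8.18e-06), from 46 to 97 counts to 0 to 5, and rose in shD3 #4 and siD3 #3 (2.02 and 1.94, adjusted p = 0.000331 and 0.00571). Albumin mRNA was scarce, with 0 to 48 counts in any main library.

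**Figure D4:**
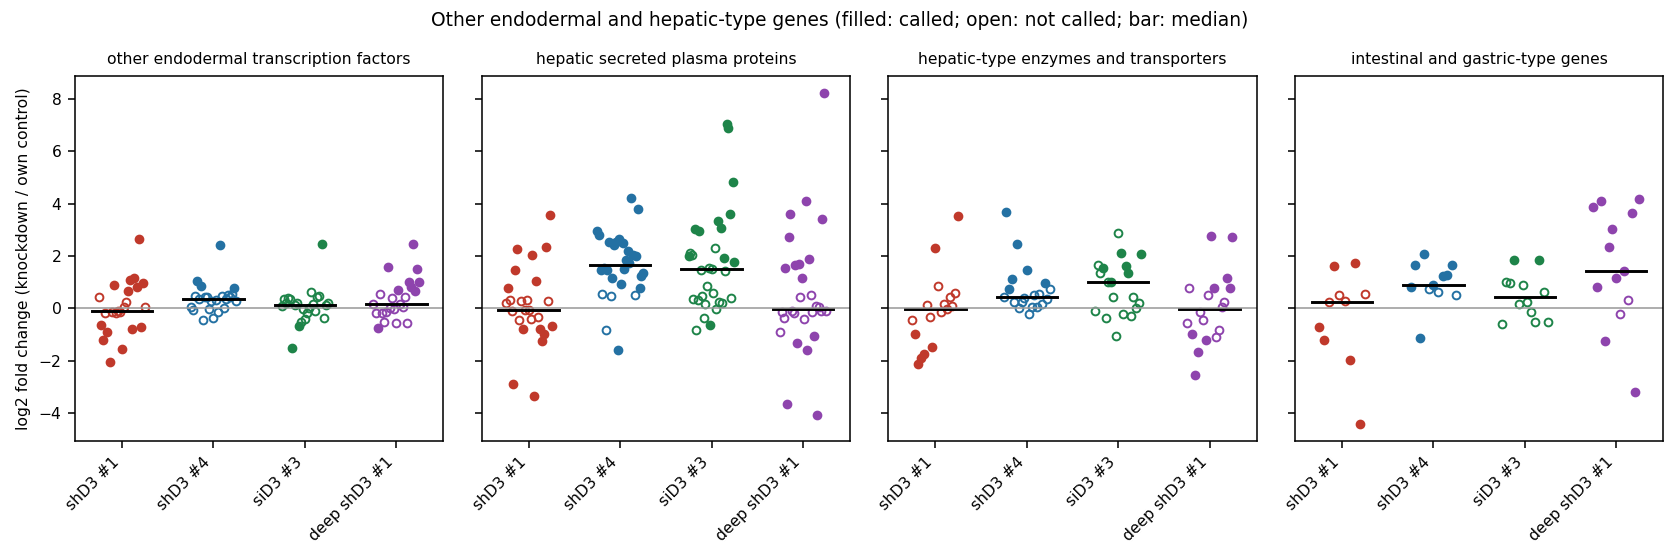
Log2 fold change (vertical) of each tested gene of the 4 lists in the 4 knockdown comparisons (horizontal), with called genes filled, genes not called open and the median as a bar. Plasma protein genes in shD3 #4 lie mostly above 0, with 23 of 28 called higher.

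Transcription factors of the endoderm moved in both directions in shD3 #1. In shD3 #1, 7 of 23 rose and 7 fell, and in siD3 #3, 1 rose and 2 fell. In shD3 #4, 4 of 23 rose and edgeR called 0 lower (2 at an unadjusted p under 0.05, and 0 with DESeq2). *FOXA3*, the third FOXA factor, fell in shD3 #1 (-2.05, SE 0.29, adjusted p = 1.64e-05) and in siD3 #3 (-1.52, SE 0.38, adjusted p = 0.0176) and rose in shD3 #4 (0.84, SE 0.14, adjusted p = 3.53e-05). In shD3 #1 *FGA* was lower and *FOXA1* higher, and in shD3 #4 both were higher. In deep shD3 #1 *FOXA3* was at -0.53 (SE 0.19, adjusted p = 0.0246), under the fold threshold. *PROX1*, a hepatoblast factor, rose in shD3 #1 (2.65, SE 0.21, adjusted p = 3.46e-08) and siD3 #3 (2.45, SE 0.32, adjusted p = 0.00103). *NR1H4*, the bile acid receptor, rose most in shD3 #4 (2.40, SE 0.13, adjusted p = 1.36e-13). In deep shD3 #1, 8 rose and 1 fell, the latter *CEBPD* (-0.75, SE 0.09, adjusted p = 3.42e-06).

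Among hepatic-type enzymes and transporters, *CYP3A5*, a drug-metabolising cytochrome P450, was the only gene of the 4 lists called in the same direction in the 3 main comparisons. Of all genes, 14.5%, 8% and 12.5% were called higher in shD3 #1, shD3 #4 and siD3 #3 taken singly. The share called in the same direction in all 3 was not counted. Its log2 fold changes were 2.30 (SE 0.10, adjusted p = 5.15e-11) in shD3 #1, 1.48 (SE 0.08, adjusted p = 2.83e-13) in shD3 #4 and 2.12 (SE 0.30, adjusted p = 0.0015) in siD3 #3, and it rose in deep shD3 #1 too (2.76, SE 0.08, adjusted p = 8.85e-13). *AADAC*, another enzyme gene of drug metabolism, had the same directions, but it was chosen with them known. *UGT2B7*, a glucuronosyltransferase, rose most in shD3 #1 (3.53, SE 0.22, adjusted p = 2.07e-09), rose in siD3 #3 and deep shD3 #1 (2.09 and 2.72) and was at 0.74 in shD3 #4 (adjusted p = 0.092). In all, 2 of 17 enzymes and transporters rose and 5 fell in shD3 #1, beside 14.5% and 14.6% of all genes. In deep shD3 #1, 5 of 18 rose and 4 fell, beside 15% and 14.1%. In shD3 #4 and in siD3 #3, 6 of 19 rose and edgeR and DESeq2 each called 0 lower (0 and 1 at an unadjusted p under 0.05).

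Of intestinal and gastric-type genes, 7 of 11 rose and 1 fell in shD3 #4, with *CDH17*, an intestinal cadherin, at 2.07 (SE 0.07, adjusted p = 7.11e-17). The gene that fell there was *ANPEP*, an aminopeptidase (-1.13, SE 0.27, adjusted p = 0.00165). In shD3 #1, 2 of 10 rose and 4 fell (median 0.26), among them *TM4SF20* (-4.42, SE 0.13, adjusted p = 7.04e-13). In deep shD3 #1, 9 of 13 rose and 2 fell (median 1.41). *VIL1*, the microvillus protein villin, rose most there (4.16, SE 0.21, adjusted p = 5.66e-10), from 12 to 17 counts to 110 to 176, and *CDH17* rose too (2.33, SE 0.12, adjusted p = 5.24e-10), whereas in the main shD3 #1 libraries they were at 0.56 and 0.23, under the fold threshold. *TM4SF20* and *ANPEP* fell in both shD3 #1 sets, at -3.19 and -1.26 in the deep one and -4.42 and -1.19 in the main one, and *AGR2* fell in the main set (-0.70) and rose in the deep one (0.80, adjusted p = 1.06e-06). *TFF1*, a trefoil factor, rose most in shD3 #1 and siD3 #3 (1.75 and 1.85, adjusted p = 9.35e-05 and 0.0137) and also rose in deep shD3 #1 (3.64). In siD3 #3, 2 of 12 rose, near the 12.5% of all genes, and edgeR called 0 lower, with 0 at an unadjusted p under 0.05 and 0 by DESeq2.

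Across the 4 lists, 13 of the 72 genes tested in both shRNA comparisons were called in opposite directions. Each was lower in shD3 #1 and higher in shD3 #4, beside 1.67% of all genes tested in both. The reverse pattern held for 0.967% of all genes. The 13 list genes were *FOXA3*, *SERPINA1*, *ITIH2*, *C3*, *CFI*, *F7*, *VTN*, *ADH1C*, *ASS1*, *ASGR1*, *MUC5AC*, *TM4SF20* and *AGR2*, named after their values were seen. *C3*, the central complement protein, was at -2.89 (SE 0.13, adjusted p = 3.9e-11) in shD3 #1, 1.48 (SE 0.07, adjusted p = 2.59e-14) in shD3 #4 and 2.94 (SE 0.21, adjusted p = 5.48e-05) in siD3 #3. In deep shD3 #1, 7 of the 12 that were tested fell, *C3* among them (-3.66, SE 0.08, adjusted p = 1.35e-13). The 13 genes had been picked for a fall with this same shRNA, so this count is not independent of the choice. The share that fell among all genes picked in that way was not counted. *AGR2* rose there, and *FOXA3*, *VTN*, *ADH1C* and *MUC5AC* were not called, at -0.53, -0.08, 0.79 and 0.31. *SERPINA1*, alpha-1 antitrypsin, was at -0.99 (SE 0.34, adjusted p = 0.021), 1.98 (SE 0.22, adjusted p = 9.29e-08) and 3.59 (SE 0.57, adjusted p = 0.0027) in shD3 #1, shD3 #4 and siD3 #3.

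The pathway that induces fibrinogen was represented by 13 genes of interleukin-6 and glucocorticoid signalling. *IL6R*, the interleukin-6 receptor, rose in shD3 #1 (1.37, SE 0.09, adjusted p = 2.02e-09), shD3 #4 (0.94, SE 0.09, adjusted p = 7.24e-09) and siD3 #3 (1.37, SE 0.29, adjusted p = 0.00917). The part of this pathway in the fibrinogen levels was not tested, and its activity was not measured. *IL6ST*, its signalling subunit, rose in shD3 #4 (0.82, SE 0.07, adjusted p = 4.35e-10) and was at -0.40 (SE 0.06) in shD3 #1, under the fold threshold. *STAT3* rose in siD3 #3 (0.95, SE 0.09, adjusted p = 0.000292) and was at 0.25 and 0.28 in shD3 #1 and shD3 #4. The feedback inhibitor *SOCS3*, a target of STAT3, was at -0.21, -0.25 and 0.34 in the 3 main knockdowns (adjusted p = 0.0682, 0.0304 and 0.334). Ligand mRNA was scarce in the main shRNA libraries, where *IL6* had 0 to 5 counts, and rose in siD3 #3 (2.92, SE 0.72, adjusted p = 0.0176) from 3 and 4 counts in siControl to 18 to 57.

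Glucocorticoid target genes did not share a direction. *FKBP5* fell in shD3 #1 (-0.67, SE 0.11, adjusted p = 0.000116) and siD3 #3 (-1.43, SE 0.14, adjusted p = 0.000277) and was at 0.02 in shD3 #4 (adjusted p = 0.913). *TSC22D3* rose in shD3 #1 (0.72, SE 0.11, adjusted p = 4.76e-05) and siD3 #3 (0.89, SE 0.15, adjusted p = 0.00335). *PER1* was at -0.54, -0.38 and 0.47 in the 3 main knockdowns and was not called in them, and *NR3C1*, the glucocorticoid receptor itself, was at -0.24, 0.35 and 0.40, under the fold threshold. Among the signalling genes, *JAK1* was at -0.44, 0.02 and 0.38 and *OSMR* at 0.23, 0.28 and 0.04, and neither was called. Over the list, 2 of 11 genes rose and 1 fell in shD3 #1, near the 14.5% and 14.6% of all genes. In siD3 #3, 4 of 12 rose and 1 fell, beside 12.5% and 9.42%. In shD3 #4, 2 of 11 rose, beside 8% of all genes, and edgeR called 0 lower (2 at an unadjusted p under 0.05, and 0 with DESeq2). In deep shD3 #1, 1 of 12 rose and 2 fell, beside 15% and 14.1% of all genes. The receptor gene *LIFR* rose (0.70, SE 0.06, adjusted p = 1.8e-07). The ligand gene *IL6* (-0.71, SE 0.19, adjusted p = 0.00505) and *SOCS3* (-0.84, SE 0.10, adjusted p = 3.8e-06) fell.

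The neighbours of the fibrinogen cluster were examined for the same pattern. *PLRG1*, a spliceosome gene 12610 bases from *FGB*, differed little, at 0.04 (SE 0.08, adjusted p = 0.721) in shD3 #1, -0.20 (SE 0.07, adjusted p = 0.0144) in shD3 #4 and -0.37 (SE 0.09, adjusted p = 0.0194) in siD3 #3. *DCHS2*, further out on that side, fell in shD3 #1 (-2.39, SE 0.46, adjusted p = 0.000321) and rose in shD3 #4 (1.02, SE 0.27, adjusted p = 0.0035), on counts of 1 to 47. *LRAT*, on the *FGG* side, rose in shD3 #4 (0.80, SE 0.28, adjusted p = 0.0219) and did not pass the filter on low counts in shD3 #1. In the deep libraries *DCHS2* fell (-2.19, SE 0.26, adjusted p = 3.99e-06) and so did *LRAT* (-1.20, SE 0.33, adjusted p = 0.00514).

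The partners of A1CF were examined because editing needs a deaminase. *APOBEC1* had at most 1 count in any library. *RBM47*, an alternative editing cofactor, had a mean of 127 cpm in sh1Control and fell in shD3 #4 (-0.62, SE 0.06, adjusted p = 1.39e-08), where *A1CF* was higher, and was at 0.00 in shD3 #1 (SE 0.06, adjusted p = 0.99). In siD3 #3, *SYNCRIP* and *KHSRP* fell (-0.65 and -0.63, adjusted p = 0.00162 and 0.00399) and *CELF2* rose from 0 and 1 counts to 15 to 17 (adjusted p = 0.00289). In the family of *AADAC*, *AADACL2* had at most 1 count in any library, and *NCEH1*, a cholesterol ester hydrolase, went from a mean of 108 cpm in sh1Control to 67.9 in shD3 #1 (-0.65, SE 0.06, adjusted p = 3.39e-07), was at -0.37 in shD3 #4 and 0.05 in siD3 #3, and rose in deep shD3 #1 (0.98, SE 0.05, adjusted p = 1.86e-10). It did not share the direction of *AADAC* in the main libraries.

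Likeness of pattern was measured as Pearson's r of log2 cpm over the 17 main libraries, among 18672 genes that passed the filter. These points share treatments and group structure, and the values are a description without a p. *FGA* was most like *FGG* (r = 0.977) and also like *FGB* (r = 0.973), and *FGB* was most like *F7* (r = 0.976). *FGG* was most like *EPB41L4A* and *SLPI* (r = 0.981 for each). *AADAC* was most like *TFPI*, the inhibitor of the tissue factor pathway (r = 0.978), *TM7SF3* (0.966) and *PAPPA* (0.965). *HNF4A* was most like *HP1BP3* (0.950), *FOXA1* like *SERINC2* (0.967), *FOXA2* like *ENSG00000270977* (0.964) and *A1CF* like *TBC1D8* (0.935). Among the members, *HNF4A* and *FOXA2* had r = 0.91, *FOXA1* had r of 0.02 and -0.04 with these factors, and *AADAC* had r = -0.76 with *HNF4A* and -0.77 with *FOXA2*.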

How the data were processed

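RNA-seq of A549 cells was taken from 2 deposited count tables, 17 main libraries and 6 deep ones. The authors removed rRNA, made directional libraries, trimmed reads (Trimmomatic 0.40 in the submitters' processing notes), aligned them with STAR 2.7.10a to GRCh38.p14 and deposited raw counts per gene, without normalisation. The paper names RefSeq annotation, but the main table lists 61806 Ensembl identifiers. Gene positions came from GENCODE 44.

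Each comparison was fitted alone with R 4.3.3 and edgeR 4.0.16 (filterByExpr, TMM factors, quasi-likelihood test), and p-values were adjusted over all genes tested by Benjamini-Hochberg. Calls needed an adjusted p under 0.05 together with a change of 0.585 on the log2 scale, which is 1.5-fold. Levels are TMM cpm (counts scaled to library size) over a whole table. SE is an approximate standard error of a log2 fold change, its size divided by the square root of the quasi-likelihood F statistic. Log2 cpm used a prior count of 2, and log2 fold changes came from the fit with its default prior. Alternatives were DESeq2 1.42.0, its size factors in edgeR, other filters on low counts, each replicate left out, a replicate block, glmTreat, a stricter fold threshold and 1 fit of all 17 libraries. The scripts were tested on simulated data. Replicates are labelled biological, with no statement of separate cultures, so p-values measure the spread between these samples.

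The members, lists and comparisons were chosen with earlier results of these data known. List genes were named when called in 1 direction in all 3 main knockdowns, when most raised or lowered in a comparison, or, for some, when in a list of under 15 genes, and exceptions are stated. Figures used python 3.11.15, matplotlib 3.10.9.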

Additional observations from a re-analysis of the deposited data

Results flagged for a closer look

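Members with every shD3 #1 library on one side of sh1Control and every shD3 #4 library on the other side of sh4Control numbered 5 of 8, beside 14.8% of the 15924 genes tested in both comparisons, and the difference between the knockdowns was not tested. The log2 fold changes in shD3 #1 and shD3 #4 were -0.29 and 0.20 for *FOXA2*, -1.28 and 1.18 for *A1CF*, -2.37 and 0.96 for *FGA*, -3.52 and 2.05 for *FGB*, and -2.92 and 2.36 for *FGG*. The members were chosen with these contrasts known. The groups held 2 or 3 libraries, too few for the test of a single outlying library.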

How the results depend on the processing

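All members kept the sign of their log2 fold change in shD3 #1 and shD3 #4 in every alternative run. Of the alternative values of members in the knockdowns, 364 moved by less than the gene's own spread between replicates in that comparison and 3 by more. That spread was wide for fibrinogen in siD3 #3, where a move of *FGB* from -0.07 to 1.24 counted among the 364. The tally therefore says little about stability there. The sign turned in some alternatives only for values near 0, namely *A1CF* in siD3 #3 (up to 0.14), *FGB* in siD3 #3 (up to 1.24), *FGA* and *FGB* in the deep libraries (up to 0.13 and 0.05) and *FOXA1* between siControl and the shRNA controls (0.08). *A1CF* in shD3 #1 ran from -1.93 to -0.97 over fits without 1 library, and *AADAC* in siD3 #3 from 1.46 to 1.73. Between sh4Control and sh1Control *AADAC* ran from -0.65 to -0.47 and passed the fold threshold without sh1Control replicate 3 (-0.61) or sh4Control replicate 3 (-0.65). Of list genes in siD3 #3, 13 to 33 rose and 0 to 3 fell without 1 library. Where those fits called 0 lower, the smaller number of controls is part of the setting. With no filter beyond 1 count, 39 rose and 6 fell, and with at least 10 counts in every sample 7 rose, with fewer genes tested. In 1 fit of all 17 libraries, 31 rose and 5 fell in siD3 #3 and 1 fell in shD3 #4. With glmTreat, 13 rose and 0 fell in siD3 #3, 14 fell in shD3 #1 and 1 fell in shD3 #4. At a log2 fold change of 1, 13 fell in shD3 #1 and 1 in siD3 #3. The cause of these shifts was otherwise not tested. Over all genes, 54 were called between sh4Control and sh1Control by edgeR, 14 by DESeq2, 18 to 177 without 1 library, and 0 (2576 at an unadjusted p under 0.05) in 1 fit of all 17 libraries.

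Replicate numbers did not pair the samples. Same-numbered deviations correlated at -0.01, 0.07 and 0.01 in shD3 #1, at 0.04, 0.06 and 0 in shD3 #4, at 0.14 and -0.11 in siD3 #3 and at -0.08, 0.02 and -0.01 in the deep libraries. With the replicate block, which leaves siD3 #3 replicate 3 without weight for want of a partner, 37 list genes rose in siD3 #3 in place of 20, and over all genes the calls moved from 3739 to 4270. Depth limits *A1CF* most, at 3 to 28 counts in shD3 #1 and sh1Control.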
